A study of Mus musculus with 6 samples.

Results

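Transcripts of 10 genes known for neutrophil granules and alarmins were followed in isolated mouse microglia after acute ischemic stroke (AIS). The genes were Elane, Mpo, Ngp, Camp, Ltf, Lcn2, S100a8, S100a9, Retnlg and Csf3r, and every array probe whose accession maps to one of these symbols was taken. This gave 11 probes, 1 per gene and 2 for Lcn2, of the 56605 probes that are not controls, and 10 of the 23462 genes that the array names. The microglia came from brains of mice labelled male and 10 weeks old, of C57BL/6 background, in which AIS was made by transient occlusion of the middle cerebral artery. Control samples came from PGC-1αf/f mice, which carry a PGC-1α allele with loxP sites joined to eGFP. The mPGC-1α samples came from littermates that carried in addition a tamoxifen-inducible Cre recombinase driven from Cx3cr1, which microglia and other mononuclear phagocytes express, so as to overexpress PGC-1α. By the strain name given in the paper, this Cre is an allele of Cx3cr1 itself. The paper describes tamoxifen treatment of mice of both genotypes before the occlusion. Cells of both groups were taken by magnetic selection for the surface receptor P2RY12. There were 3 control arrays and 3 mPGC-1α arrays, 1 array per sample, and the time after AIS is not given for them in the sources used here. Nothing in the labels says that the samples came from separate animals, so p-values measure only the spread between these samples, which may be technical.

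Neutrophils are short-lived leukocytes that mature in bone marrow and enter the brain after ischemia. Their granule proteins are made in order: azurophil granule proteins such as myeloperoxidase and neutrophil elastase at the promyelocyte stage, and specific granule proteins such as lactoferrin at the later myelocyte stage. S100A8 and S100A9 form calprotectin, an abundant cytosolic protein of mature neutrophils and monocytes that acts as an alarmin, a danger signal read by TLR4 and RAGE, when it is released. Lcn2, S100a8 and S100a9 are also known to be induced in other cells under inflammation, so none of these transcripts belongs to neutrophils in every setting.

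Promoters of 4 of the genes are shown because they hold the letters of motifs of factors known to act in granulocytes, C/EBP and PU.1. Each is the 250 bases before the annotated start, read 5′ to 3′ on the strand of the gene from RefSeq assembly GRCm38.p6. Elane and Mpo were chosen for the widest spread between arrays, S100a9 as an alarmin, and Lcn2 as the gene with both motifs. Capitals mark TTGCNNAA for C/EBP and GAGGAAG for PU.1 on either strand.
Elane (chr10:79886062-79886311, plus strand): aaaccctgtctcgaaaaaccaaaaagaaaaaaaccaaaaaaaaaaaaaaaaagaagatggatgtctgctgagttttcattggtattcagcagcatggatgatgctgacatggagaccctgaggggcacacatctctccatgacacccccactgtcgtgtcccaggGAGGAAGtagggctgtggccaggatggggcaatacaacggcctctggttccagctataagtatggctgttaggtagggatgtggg
Mpo (chr11:87793534-87793783, plus strand): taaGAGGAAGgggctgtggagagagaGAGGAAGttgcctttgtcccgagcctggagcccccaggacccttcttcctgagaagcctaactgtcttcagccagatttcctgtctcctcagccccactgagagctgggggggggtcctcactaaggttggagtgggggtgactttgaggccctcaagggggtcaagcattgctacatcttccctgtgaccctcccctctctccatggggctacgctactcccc
Lcn2 (chr2:32387740-32387989, minus strand): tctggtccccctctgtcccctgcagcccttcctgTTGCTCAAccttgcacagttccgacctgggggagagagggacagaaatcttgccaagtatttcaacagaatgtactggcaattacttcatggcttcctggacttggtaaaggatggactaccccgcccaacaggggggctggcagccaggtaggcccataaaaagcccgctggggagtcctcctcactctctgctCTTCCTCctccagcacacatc
S100a9 (chr3:90695722-90695971, minus strand): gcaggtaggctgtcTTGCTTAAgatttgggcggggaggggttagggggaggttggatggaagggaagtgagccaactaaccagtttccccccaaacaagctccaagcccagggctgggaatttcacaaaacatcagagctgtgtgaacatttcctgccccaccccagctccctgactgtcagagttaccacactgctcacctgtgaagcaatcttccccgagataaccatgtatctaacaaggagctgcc
The PU.1 letters began 85 bases before the start of Elane and at 247 and 224 bases before the start of Mpo. In Lcn2 the C/EBP letters began 216 bases and the PU.1 letters 21 bases before the start, and in S100a9 the C/EBP letters began 236 bases before it. Of the 10 promoters, 5 held the C/EBP letters, 5 held the PU.1 letters, 1 (Lcn2) held both and Camp held neither. All 10 genes were found in the promoter table. Over 32851 promoters of the same length the shares were 9.56% for the C/EBP letters and 10.6% for the PU.1 letters. A match describes the letters in this window and is not a binding site.

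Each level below is the log2 intensity of a probe minus the log2 of its array's 75th percentile, and each difference is mPGC-1α minus control on that log2 scale. Levels of different probes cannot be compared with each other. All 11 probes were well above background on all 6 arrays, and 0 were saturated. The scanner software had marked 16 of the 66 spots of these probes as outliers, 4 of them on control array 3 and 5 on mPGC-1α array 3, the arrays of the second slide. Marking was more frequent among bright spots on every array, at 3.28% to 30.6% of spots above the 75th percentile against 0.0854% to 0.884% of the others. With marked spots left out, 6 probes could be tested (Elane, Mpo, Camp, the brighter Lcn2 probe, Retnlg and Csf3r) and 5 could not. The probes of S100a8, S100a9, Ngp and Ltf and the dimmer Lcn2 probe are therefore given from the fit with marked spots kept, as are the levels of all probes.

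Some values touch every result below. Ppargc1a, which encodes PGC-1α, was not higher in the samples labelled mPGC-1α. Its brighter probe differed by -0.33 (standard error (SE) 0.24, limma adjusted p = 0.817) and its dimmer probe by -0.43 (SE 0.275, adjusted p = 0.788). The paper reports a rise of PGC-1α mRNA in cultured microglia. It also reports higher PGC-1α protein by immunostaining in brain microglia of mPGC-1α mice after tamoxifen. Here mPGC-1α therefore names the label of an array. Cx3cr1, of which the Cre of the mPGC-1α mice is an allele, was lower on its dimmer probe, by -1.25 (unadjusted p = 0.000525 and adjusted p = 0.669 by limma). Whether that allele has a part in the Cx3cr1 difference was not tested. The groups of that Cx3cr1 probe did not overlap, as for 4.83% of all probes with mPGC-1α lower. The brighter probe, not tested, had overlapping groups with means of 3.65 in control and 3.30 in mPGC-1α samples. All 10 microglia markers followed, P2ry12 among them, were well above background on all 6 arrays. Although all samples were labelled male, Xist stood at -5.21 on control array 2 and between -0.97 and -0.51 on the other 5 arrays, and control array 2 was also the one array on which 4 of 7 Y-linked probes stood well above background. Control array 2 thus stands apart from the rest, and the labelled sex goes against these probes on the other 5 arrays. Differences of the 10 genes without control array 2 are given beside their values.

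Neither azurophil granule gene differed between the groups beyond the spread of the arrays, but both were far lower on mPGC-1α array 1 than elsewhere. Elane encodes neutrophil elastase, a serine protease. On probe A_66_P137219 its level was 0.02, 0.52 and 1.19 on control arrays 1, 2 and 3, against -2.08, 0.61 and 0.78 on mPGC-1α arrays 1, 2 and 3. mPGC-1α arrays 2 and 3 lay among the controls and array 1 lay below all other arrays, so that the groups overlapped. The mean was 0.58 ± 0.59 (SD, n = 3) in control and -0.23 ± 1.60 (SD, n = 3) in mPGC-1α samples. The difference of -0.81 (SE 0.67) did not pass, with a limma adjusted p = 0.841 and a two-sided exact permutation p = 0.7, in a design whose smallest possible value is 0.1. In bulk RNA of this kind, fewer cells of a type and less RNA per cell cannot be told apart.

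Mpo encodes myeloperoxidase, the oxidant-forming enzyme of azurophil granules. Its level on probe A_51_P317460 was 2.45, 2.98 and 3.34 on control arrays 1, 2 and 3, against 0.40, 3.38 and 3.11 on mPGC-1α arrays 1, 2 and 3. As for Elane, mPGC-1α array 1 was the lowest of the 6 and the other mPGC-1α arrays lay within or just above the control values. The mean was 2.92 ± 0.45 (SD, n = 3) in control and 2.30 ± 1.65 (SD, n = 3) in mPGC-1α samples, a difference of -0.63 (SE 0.66, limma adjusted p = 0.881). Within mPGC-1α samples Mpo spanned 2.97, a 7.85-fold range, and Elane spanned 2.86, a 7.26-fold range, against 0.89 and 1.17 within controls. Among all probes, 0.664% had a range within mPGC-1α samples at least as wide as that of Mpo and 0.727% at least as wide as that of Elane. Both differences changed sign without that array. Without mPGC-1α array 1 they were 0.12 for Elane and 0.32 for Mpo, and without control array 2 they were -0.83 and -0.60. Between arrays of the same replicate number, Elane differed by -2.10, 0.09 and -0.41 and Mpo by -2.05, 0.40 and -0.23 for numbers 1, 2 and 3. On the first slide, which held arrays 1 and 2 of each group, the difference was -1.004 for Elane and -0.82 for Mpo.

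**Figure D1:**
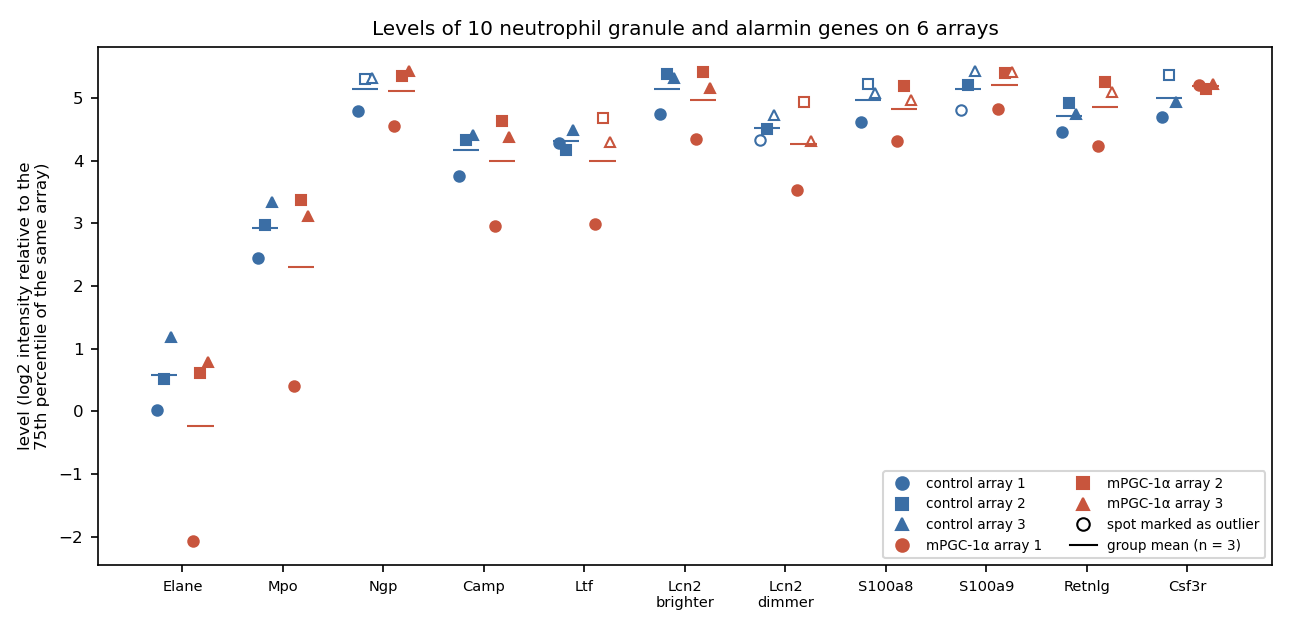
Level of each probe (log2 intensity minus the log2 of the array's 75th percentile) on 3 control and 3 mPGC-1α arrays, with lines at the group means and open symbols for spots marked as outliers. mPGC-1α array 1 lay at -2.08 for Elane and 0.40 for Mpo, below the other 5 arrays, while Csf3r lay between 5.15 and 5.22 on all mPGC-1α arrays; heights of different probes are not comparable.

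The 4 specific granule genes were also lowest on mPGC-1α array 1, with a smaller range in mPGC-1α samples than Elane and Mpo, and no difference between the groups passed the test. Ngp encodes neutrophilic granule protein, related to the cystatins. Its level on probe A_52_P429450 was 4.80, 5.31 and 5.33 on the control arrays, against 4.55, 5.35 and 5.43 on the mPGC-1α arrays, in the order of the replicate numbers. Array 1 was the lowest of each group, and the difference was -0.03 (SE 0.26, limma adjusted p = 0.988 with marked spots kept). It changed sign with the arrays used, at 0.25 without mPGC-1α array 1 and 0.05 without control array 2.

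Camp encodes the cathelicidin antimicrobial peptide. Its probe A_55_P2039699 read 3.76, 4.33 and 4.41 on control arrays 1, 2 and 3, against 2.96, 4.63 and 4.37 on mPGC-1α arrays 1, 2 and 3. Again array 1 was low in both groups, and most so in mPGC-1α samples, where the range was 1.68 against 0.65 in controls. The difference was -0.18 (SE 0.40, limma adjusted p = 0.953), 0.34 without mPGC-1α array 1 and -0.09 without control array 2.

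Ltf encodes lactoferrin, an iron-binding protein. Its probe A_52_P15388 read 4.29, 4.17 and 4.48 on control arrays 1, 2 and 3, against 3.00, 4.68 and 4.30 on mPGC-1α arrays 1, 2 and 3. The controls were close together, with control array 2 the lowest, and mPGC-1α array 1 lay below all other arrays. Its range was 1.69 in mPGC-1α and 0.32 in control samples, and 3.15% of all probes had a range in mPGC-1α samples at least as wide. The difference was -0.32 (SE 0.37, limma adjusted p = 0.883 with marked spots kept), 0.18 without mPGC-1α array 1 and -0.39 without control array 2.

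Lcn2 encodes lipocalin 2, which binds bacterial siderophores. On the brighter probe, A_55_P2070869, the level was 4.75, 5.38 and 5.32 on control arrays, against 4.35, 5.41 and 5.16 on mPGC-1α arrays 1, 2 and 3. The dimmer probe, A_51_P510156, read 4.33, 4.51 and 4.73 on control arrays, against 3.53, 4.94 and 4.32 on mPGC-1α arrays, with 4 of 6 spots marked. Both probes were lowest on array 1 of each group and had overlapping groups. Their differences were -0.18 (SE 0.29, limma adjusted p = 0.932) and -0.26 (SE 0.31, adjusted p = 0.889 with marked spots kept). On the brighter probe the difference was 0.14 without mPGC-1α array 1 and -0.06 without control array 2, and on the dimmer probe 0.11 and -0.26.

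The alarmins, whose genes are neighbours in the annotation, varied in a similar way over the arrays, and neither difference between the groups passed the test. For S100a8 (probe A_51_P256827) the level was 4.62, 5.23 and 5.07 on control arrays 1, 2 and 3, against 4.31, 5.19 and 4.96 on mPGC-1α arrays 1, 2 and 3. For S100a9 (probe A_55_P1998471) it was 4.81, 5.21 and 5.44 on control arrays, against 4.82, 5.40 and 5.41 on mPGC-1α arrays. Array 1 was the lowest of its group for both genes in both groups, and the groups overlapped. The mean of S100a8 was 4.97 ± 0.32 (SD, n = 3) in control and 4.82 ± 0.45 (SD, n = 3) in mPGC-1α samples, a difference of -0.15 (SE 0.25, limma adjusted p = 0.925 with marked spots kept). The mean of S100a9 was 5.15 ± 0.32 (SD, n = 3) and 5.21 ± 0.34 (SD, n = 3), a difference of 0.06 (SE 0.23, limma adjusted p = 0.971 with marked spots kept). Without mPGC-1α array 1 the differences were 0.10 and 0.26, and without control array 2 they were -0.02 and 0.09. The sign for S100a9 depended on the scaling, with -0.13 after quantile normalization. On that scale the groups of S100a8 did not overlap, with a difference of -0.32 (limma adjusted p = 0.737 with marked spots kept). With the scaling used here, 11.0% of all probes had groups that did not overlap. That share was not computed after quantile normalization. The summed linear level of both alarmins was 52.6, 74.5 and 77.0 times the 75th percentile on the control arrays, against 48.1, 78.8 and 73.8 times it on the mPGC-1α arrays.

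Of the genes listed here under mature neutrophils, Retnlg followed the granule genes and Csf3r did not. Retnlg encodes resistin-like gamma, a secreted protein of myeloid cells. Its level on probe A_52_P425839 was 4.45, 4.92 and 4.75 on control arrays 1, 2 and 3, against 4.23, 5.26 and 5.10 on mPGC-1α arrays 1, 2 and 3, with array 1 the lowest of each group. The marked spot of mPGC-1α array 3 was dropped from the test, which gave a difference of 0.04 (SE 0.31, limma adjusted p = 0.990). With that spot kept, the difference was 0.15 (SE 0.27), 0.47 without mPGC-1α array 1 and 0.26 without control array 2. Its sign turned under other scalings, to -0.15 after quantile normalization and -0.15 in the authors' normalized values, with that spot dropped.

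Csf3r encodes the receptor for granulocyte colony-stimulating factor (G-CSF), which drives neutrophil production. Its probe A_55_P2070352 read 4.70, 5.36 and 4.94 on control arrays 1, 2 and 3, against 5.20, 5.15 and 5.22 on mPGC-1α arrays 1, 2 and 3. The mPGC-1α arrays were nearly equal, with a range of 0.07, and lay between control array 2 and the other control arrays. Of all probes, 98.4% had a range in mPGC-1α samples at least as wide. This near-equality depended on the scaling, since the range was 0.52 with the percentile over unmarked probes, 0.25 after quantile normalization, 0.39 after normexp and 0.19 in the authors' normalized values. The spot of control array 2 was marked and dropped from the test, and the difference was then 0.37 (SE 0.18, unadjusted p = 0.0771 and adjusted p = 0.737 by limma). Kept, it gave 0.19 (SE 0.19, limma adjusted p = 0.860) and overlapping groups. With the spot dropped, other scalings gave 0.058 after quantile normalization, 0.020 after normexp and 0.048 in the authors' normalized values. When control array 2 was left out of the whole fit, all 3 mPGC-1α arrays lay above the remaining controls, with the same difference of 0.37. Csf3r did not pass in that fit (limma adjusted p = 0.205), which called 5.42% of tested probes. The share of all probes that separate the groups without that array was not computed. For the 10 microglia markers the range in mPGC-1α samples had a median of 0.34. Which cells the Csf3r transcript came from was not tested.

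Over the 6 tested probes, 0 passed an adjusted p of 0.05 by limma, where 0% of 40745 probes did, and 0 had an unadjusted p below 0.05, where 7.15% did. With marked spots kept, 0 of the 11 probes had an unadjusted p below 0.05, where 7.37% of 41387 probes did. With the replicate number as a block, 1 of the 6 (Elane, limma unadjusted p = 0.0408, adjusted p = 0.389) had an unadjusted p below 0.05, where 11.9% of all probes did, and with marked spots kept 0 of the 11 did. S100a8 was lower in each of the 3 same-numbered pairs, with differences of -0.31, -0.046 and -0.11, the last 2 from pairs with marked spots. Its adjusted p was 0.739 in the blocked limma fit with marked spots kept. The share of all probes with the same sign in all 3 pairs was not computed. None of the 11 probes separated the groups without overlap (0 of 11), against 11.0% of all probes, 6.17% with mPGC-1α higher and 4.83% with it lower. Exact permutation p-values ran from 0.4 for Csf3r to 1 for Ngp. The median difference of the 6 tested genes was -0.18, against 0.06 over all tested probes. Each of the 10 genes spanned a wider range within the mPGC-1α samples than the mean difference between the groups, except Csf3r, whose range of 0.07 was smaller than its difference.

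**Figure D2:**
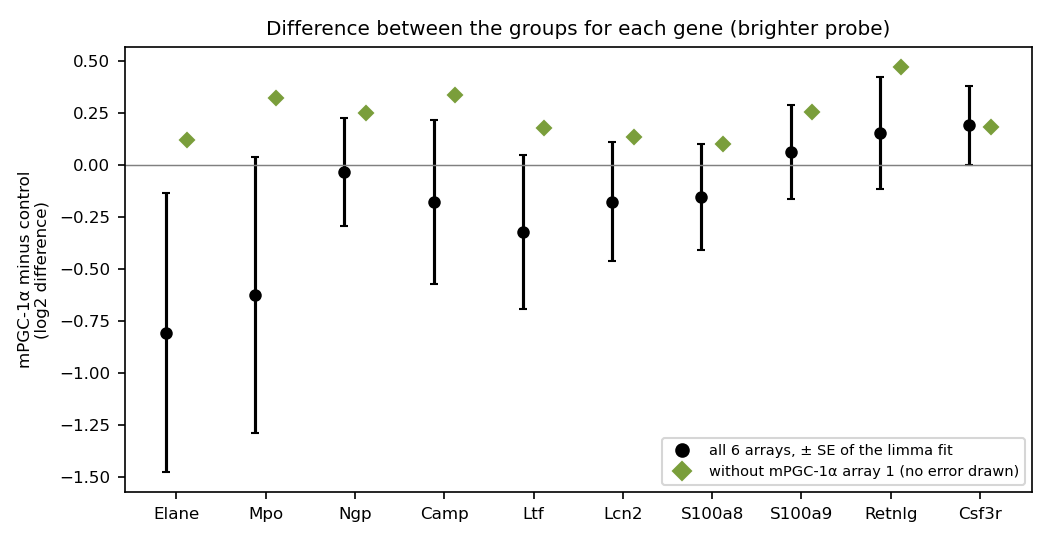
Difference between mPGC-1α and control (log2) for the brighter probe of each gene with marked spots kept, from all 6 arrays (black, with the SE of the limma fit) and without mPGC-1α array 1 (green). Elane at -0.81 and Mpo at -0.63 had the widest errors, 0.67 and 0.66, and moved to 0.12 and 0.32 without that array.

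The arrays of a group differed in a common way. mPGC-1α array 1 was the lowest of its group on 10 of the 11 probes, against 26.4% of all probes. Control array 1 was the lowest of its group on 10 of the 11, against 39.9% of all probes. Both held for 9 of the 11, against 15.4% of all probes. After quantile normalization mPGC-1α array 1 was still the lowest on 10 of the 11 (30.1% of all probes), but control array 1 on 5 of the 11 (36.6% of all probes), and both held for 5 (15.5%), so the low place of control array 1 depended on the scaling. With the scaling used here, Ltf in the controls and Csf3r in the mPGC-1α samples were the exceptions. Over the 6 arrays, Pearson's r with the mean of both alarmins was 0.98 for the brighter Lcn2 probe and for Ngp, 0.96 for Camp, 0.90 for Retnlg, 0.89 for Mpo, 0.87 for Elane, 0.79 for Ltf and 0.33 for Csf3r. These correlations describe 6 arrays that share their scaling and carry no test. Of 15209 other genes compared, those most like the alarmin mean were Mta3 and Pgap4 (r of 0.991 each), Tkt (0.990), Vav3 (0.989) and Gm4791 (0.988), and 67 had an r over 0.95.

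By the median over each class, the spread within the mPGC-1α samples was widest among azurophil and promyelocyte genes. Prtn3 and Ctsg, which encode the azurophil proteases proteinase 3 and cathepsin G, and Ms4a3 and Fcnb, genes of granulocyte precursors, were added with Prss57 as an azurophil and promyelocyte list. For Prtn3 the level was 1.43, 1.52 and 2.54 on the control arrays, against -0.71, 2.25 and 2.11 on mPGC-1α arrays 1, 2 and 3. Ctsg read 1.49, 2.06 and 2.60 on the control arrays, against -0.37, 2.48 and 2.13 on the mPGC-1α arrays. Both shared with Mpo the low place of mPGC-1α array 1, far below the rest, though not the highest array. The range in mPGC-1α samples had a median of 2.85 over the 5 genes of that list, 1.74 over 7 genes of specific and gelatinase granules and 1.70 over 9 mature surface genes, against 0.472 over all probes. In controls the medians were 0.94, 0.58 and 0.89, against 0.707 over all probes. mPGC-1α array 1 was the lowest of its group in 5 of 5, 7 of 7 and 8 of 9 of these genes, against 26.4% of all probes. Differences between the lists were not tested.

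**Figure D3:**
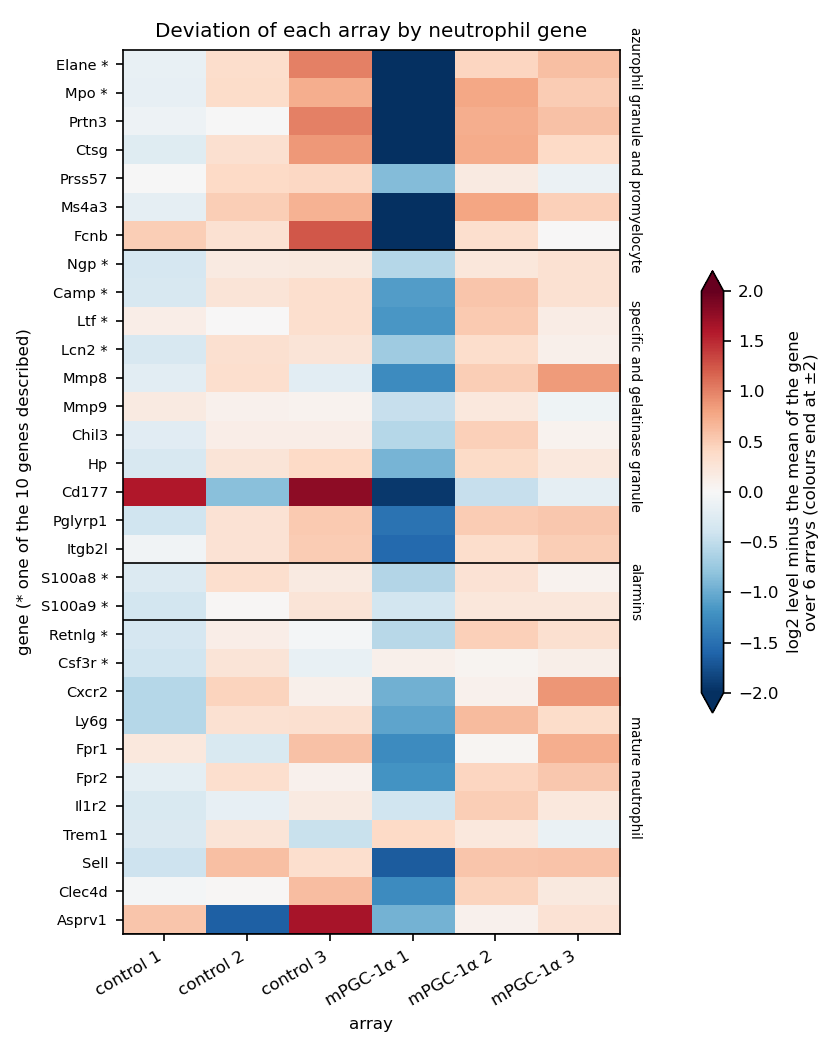
Deviation of each array from the mean of the gene over 6 arrays (log2, colours end at 2 on either side) for the 10 genes (asterisks) and other neutrophil genes, grouped by class. The column of mPGC-1α array 1 is the darkest blue for azurophil and promyelocyte genes such as Mpo and Prtn3, paler for most specific granule genes other than Cd177, and near white for Csf3r.

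**Figure D4:**
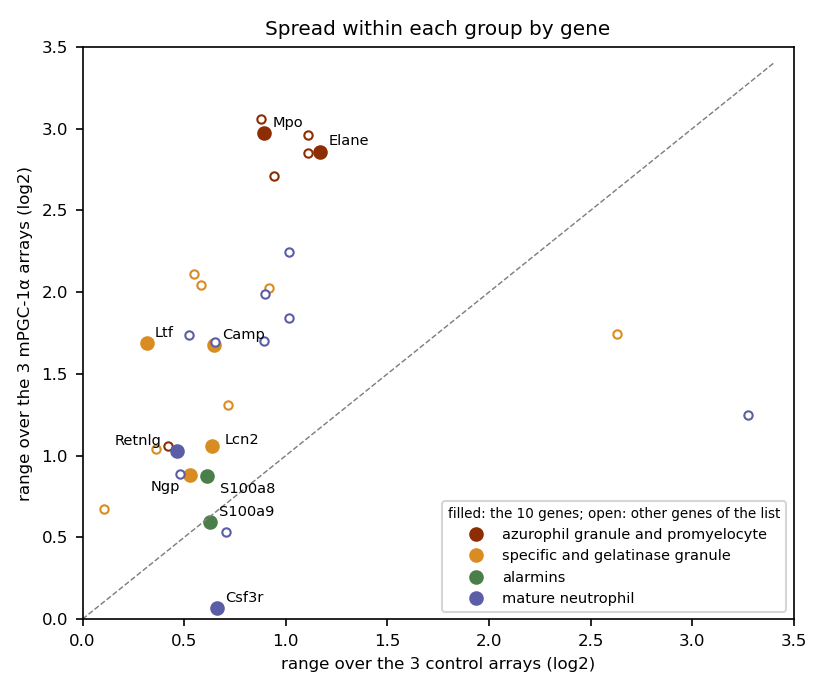
Range over the 3 mPGC-1α arrays against the range over the 3 control arrays (log2) for each gene, coloured by class, with equality on the dashed line. Mpo (2.97 against 0.89) and Elane (2.86 against 1.17) lay far above the line and Csf3r (0.07 against 0.66) below it, a place it lost after quantile normalization (0.25 against 0.19).

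Of 32 further genes of neutrophil classes, of G-CSF and granulocyte factors, and of alarmins and their receptors, 31 had a probe, and all 31 were tested. Of these, 0 passed an adjusted p of 0.05 by limma, and at an unadjusted p below 0.05 there was 1 higher and 1 lower, where 7.15% of all tested probes passed. Differences were above 0 in 12 and below 0 in 19. On the brightest probe of each gene, 0 had groups that did not overlap, against 11.0% of all probes. Olfm4, an olfactomedin of a neutrophil subset, had no probe here.

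Cd177, a surface glycoprotein of neutrophils, had the widest difference of these genes. It read 2.04, -0.40 and 2.23 on control arrays 1, 2 and 3, against -1.49, -0.02 and 0.25 on mPGC-1α arrays 1, 2 and 3. Control array 2 lay among the mPGC-1α arrays and the other controls above them all. The difference was -1.71 (SE 0.68, unadjusted p = 0.0328 and adjusted p = 0.675 by limma). Without control array 2 it was -2.55, with a limma adjusted p = 0.0199, in a fit that called 2130 probes, 5.42% of those tested.

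Fcnb, which encodes ficolin B, differed by -1.36 (SE 0.62, limma adjusted p = 0.707; -1.55 without control array 2), with 1.096, 0.90 and 1.84 on the control arrays, against -1.78, 0.93 and 0.62 on the mPGC-1α arrays. Here too mPGC-1α array 1 was the lowest. Il33, an alarmin of the interleukin-1 family released by damaged cells, went the other way on the brighter of its probes, which disagreed. The difference there was 1.18 (SE 0.48, unadjusted p = 0.0350 and adjusted p = 0.683 by limma), and 1.61 without control array 2. That probe read -4.31, -3.42 and -5.09 on the control arrays, against -2.35, -3.38 and -3.54 on the mPGC-1α arrays, which overlapped with control array 2. The dimmer Il33 probe differed by -0.05 (SE 0.40, limma adjusted p = 0.988). Cd177, Fcnb and the brighter Il33 probe passed with the replicate number as a block and the 75th percentile taken over unmarked probes. Their limma adjusted p were 0.000371, 0.00335 and 0.0267, in a fit that called 1723 probes, 4.23% of those tested. With the block and the scaling used here, 0 of the 31 passed.

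The receptors of the alarmins, Tlr4 and Ager (which encodes RAGE), differed by 0.09 and 0.41 with limma adjusted p = 0.977 and 0.842. Csf3, the G-CSF gene, differed by 0.01 (limma adjusted p = 0.997). Cebpe, a transcription factor needed for specific granules, read 0.39, 1.19 and 0.54 on control arrays, against -1.25, 0.90 and 0.92 on mPGC-1α arrays, and its difference of -0.52 did not pass (limma adjusted p = 0.874). Like the granule genes, Cebpe was lowest on mPGC-1α array 1. Ly6g, the surface marker by which mouse neutrophils are defined, was well above background on all 6 arrays. Its level was 0.83, 1.71 and 1.72 on control arrays, against 0.34, 2.04 and 1.76 on mPGC-1α arrays, lowest on array 1 of each group. Trem1, a myeloid receptor, had probes that disagreed, with 0.32 on the brightest and -1.34 on a dimmer one. On the dimmer Trem1 probe the groups did not overlap, as for 4.83% of all probes with mPGC-1α lower (unadjusted p = 0.015 and adjusted p = 0.669 by limma).

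mPGC-1α array 1 was also the lowest of its group for part of the genes of other cells, where it was so for 26.4% of all probes. It was the lowest of its group in 9 of 10 monocyte and macrophage markers, whose summed linear level was 27.4, 37.9 and 38.9 times the 75th percentile on control arrays, against 21.3, 48.8 and 46.7 times it on mPGC-1α arrays. All 10 of these markers were well above background on all arrays. It was also the lowest of its group in 6 of 7 astrocyte markers, though their sum of 14.4 lay above the 10.3, 13.5 and 13.4 of the control arrays, with 46.5 and 17.9 on mPGC-1α arrays 2 and 3. mPGC-1α array 1 was the lowest in 5 of 10 microglia, 3 of 6 endothelial, 0 of 7 neuron and 0 of 6 oligodendrocyte markers. All tested astrocyte, neuron and oligodendrocyte markers had differences above 0, with medians of 1.00, 0.97 and 0.72, and at an unadjusted p below 0.05 by limma 3 of 6, 4 of 7 and 2 of 6 were higher. The 4 measured erythrocyte markers were lowest on array 1 of both groups, as were 15.4% of all probes. Their sums were 60.6, 151 and 77.6 on control arrays, against 78.3, 158 and 120.2 on mPGC-1α arrays. The 10 microglia markers summed to at least 179.8 on each of the 6 arrays, with 181.9 on mPGC-1α array 1. The summed linear level of Elane and Mpo was 6.48, 9.30 and 12.4 on control arrays, against 1.56, 11.9 and 10.4 on mPGC-1α arrays. Whether the makeup of the sample has a part in the low granule gene levels of mPGC-1α array 1 was not tested.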

How the data were processed

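Microglia were selected by P2RY12, and their total RNA was amplified, labelled and hybridised to single-colour Agilent mouse arrays (the labels name both Cy3 and Cy5, and the green channel was used). For each spot, the deposited scanner files give a linear intensity from Agilent Feature Extraction 11.5.1.1, background-subtracted and not normalized between arrays. The deposited series matrix gives the authors' GeneSpring-normalized log2 values of 46731 probes, out of 56605 non-control probes. Its columns correlated with the same array's log2 signal at r of at least 0.999, and their medians were 7.78 to 7.79.

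Levels were computed in R 4.3.3 with data.table (version 1.17.8), as the log2 processed signal minus the log2 of the 75th percentile over all non-control spots of that array. That percentile was 926.6 to 1540 intensity units. Outlier-marked spots were left out of the tests. A probe was tested if well above background on all unmarked arrays (at least 2) of a group, with at least 2 values in each group, which held for 40745 probes. S100a8, S100a9, Ngp, Ltf and the dimmer Lcn2 probe lacked enough unmarked spots, so the fit with marked spots kept (41387 probes) is given for them. Groups were compared with limma 3.58.1 (intensity trend, two-sided, Benjamini-Hochberg over all tested probes, threshold 0.05) and single probes by an exact permutation test over 20 assignments. No test for the arrays is named in the methods of the study. The procedure was tested on simulated data. The number of arrays limits the precision.

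Probes were named by matching accessions to a RefSeq gene table of GRCm38.p6, for 33767 of 56605 probes (59.7%). The brightest probe stood for a gene. The 10 genes were named whatever their values, and listed neutrophil and alarmin genes if the group means lay at least 2-fold apart or the groups did not overlap. Further genes, such as Prtn3, Ctsg, Cebpe, Ly6g, Csf3 and the alarmin receptors, were named for their role, after their values were seen. Genes and lists were chosen with earlier results of these data known.

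Deviations from the group means correlated at 0.247, 0.224 and 0.171 between arrays of the same replicate number and at -0.337 to 0.035 between others. With 3 arrays per group these deviations depend on each other, so the values do not establish pairs. The numbers, taken from the titles, were used as a block in an alternative fit, and the main fit took no pairs. With that block the limma adjusted p was 0.389 for Elane and 0.554 for Mpo, against 0.841 and 0.881 in the main fit. Array 3 of each group was also the array of the second slide. Alternatives were other normalizations, filters on dim probes, slide and replicate blocks, no intensity trend, marked spots kept, and leaving out each array. Normexp (offset 50) was run on the median signal.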

Additional observations from a re-analysis of the deposited data

How the results depend on the processing

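None of the probes of the 10 genes passed an adjusted p of 0.05 under any alternative in which it was tested (at most 7 of the 11 in the series matrix, which lacks S100a8, S100a9, Ngp and the dimmer Lcn2 probe), including the replicate block, which changed no call for these genes and left 0 of 6 tested probes past the threshold. Over all probes the count was 0, but 1 with the replicate block, 0 to 2130 with an array left out (2130 without control array 2, and 0 without any other array), and 1723 with the block and the 75th percentile over unmarked probes, a combination chosen after seeing the data. Of the further genes, 3 passed with that combination and 0 to 1 with an array left out (Cd177, without control array 2). Non-overlapping groups were found for 0 to 1 of the 10 genes with an array left out (Csf3r, without control array 2), and for 0 otherwise where marked spots are dropped. The share of all probes without overlap was not computed for an array left out.

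Signs of small differences were less stable. Retnlg was 0.04 and turned to -0.15 with quantile normalization, -0.17 with normexp, -0.15 in the series matrix and -0.024 with the percentile over unmarked probes. S100a9 turned to -0.13 with quantile normalization and -0.17 with normexp, and Ngp to 0.063 with the percentile over unmarked probes. Csf3r, 0.37, was 0.19 with its marked spot kept and 0.020 to 0.058 with quantile normalization, normexp or the series matrix. Leaving out an array gave -1.31 to 0.12 for Elane, -1.17 to 0.32 for Mpo, -0.50 to 0.34 for Camp, -0.39 to 0.14 for Lcn2, -0.092 to 0.14 for Retnlg and 0.36 to 0.39 for Csf3r (each tested in 4 of the 6 cases, and with marked spots kept -0.044 to 0.47 and 0.042 to 0.37), -0.34 to 0.10 for S100a8, -0.11 to 0.26 for S100a9 (-0.034 and -0.038 without mPGC-1α array 2 or 3), -0.21 to 0.25 for Ngp (0.051 and 0.059 without control array 2 or 3), -0.67 to 0.18 for Ltf and -0.50 to -0.24 for Ppargc1a. Without replicate 1 of both groups, added after seeing the data, Mpo was 0.09, Camp 0.14, Ngp 0.075 and Ltf 0.17, and Elane was -0.16, Lcn2 -0.066, S100a8 -0.077 and S100a9 0.087. The cause was not tested. Values of S100a8, S100a9, Ngp and Ltf come from marked spots kept, also added after seeing the data. Each of the 11 probes was well above background on all arrays.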
